A study of Rattus norvegicus with 5 samples.

Results

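The genes described here are the collagens and the enzymes, cross-linkers, chaperone and proteases that turn procollagen chains into matrix. They were taken by symbol from the Affymetrix array: every gene named Col, number, a, number, and 12 of the 13 processing genes asked for, P3h2 (Leprel1) having no probe set with its name. This gave 53 genes of 14217 named genes, of which 41 are collagens (11 fibrillar, 5 of basement membranes and 25 others) and 12 are processing genes, and 23 of the 53 were also measured on a pair of two-colour arrays. The cells were cerebellar granule cells of Wistar rats taken 8 days after birth, kept in 25 mM KCl and 10% FCS. D1 cells were harvested on day 1 and D5 cells on day 5, and D5+ cells, also of day 5, had received 10 µM ICRF-193, an inhibitor of DNA topoisomerase II, every day. All 3 conditions met 10 µM cytosine arabinoside, which holds back dividing glia, from a medium change late in day 1, so D1 cells met it for the shortest time. Each condition was hybridized to 1 Affymetrix array, and 1 two-colour array compared D5 (Cy5) with D1 (Cy3) and another D5 (Cy5) with D5+ (Cy3). With 1 array per condition no difference has a replicate check and no p-value can be given. Both Affymetrix ratios use the same D5 array, and both two-colour ratios use D5 as Cy5, so they are not independent.

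Collagens are trimers of chains that wind into a triple helix. Fibrillar collagens (types I, II, III, V and XI among them) form the fibrils of connective tissue, type IV collagen forms the sheet of basement membranes, and others bind fibrils, form beaded filaments or span the cell membrane. In the endoplasmic reticulum prolines and lysines are hydroxylated and the chaperone Serpinh1 (Hsp47) holds the helix. Outside the cell the propeptides are cut off and lysyl oxidases cross-link the chains. In brain, fibrillar collagens are known mainly from meninges and vessel walls, and type IV collagen from the basement membrane of vessels and pia, while a few collagens, Col19a1 among them, are known from neurons.

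The promoters of the chains that the results turn on are shown first. Of the 53 genes, 41 have a promoter window in RefSeq (build GRCr8, 250 bases before to 50 after an annotated start), and the windows of Col1a2, Col8a1 and Serpinh1 and the stretch that those of Col4a1 and Col4a2 share are printed 5′ to 3′. Capitals mark matches to short promoter motifs, searched on both strands. The CCAAT box is CCAAT, on the other strand ATTGG. A GC box was read as GGGCGG, on the other strand CCGCCC. A further motif, the box for the TATA-binding protein, was read as TATAAA, on the other strand TTTATA, and is called the TATA box here. In the Serpinh1 window the core of a heat shock element is marked too, read as either GAANNTTC or TTCNNGAA. Each of these forms reads the same on both strands, and a match to either was counted as a heat shock core. Col1a2, a chain of type I collagen, is the fibrillar gene with the largest measured D5/D1 on the Affymetrix arrays among those with a window, and lies at chr4:33518307-33518606 on the plus strand. Col8a1, a short-chain collagen, had the largest measured D5/D1 of all the genes here (chr11:56246532-56246831, plus strand). Serpinh1 is the collagen chaperone (chr1:163062927-163063226, minus strand).
Col1a2: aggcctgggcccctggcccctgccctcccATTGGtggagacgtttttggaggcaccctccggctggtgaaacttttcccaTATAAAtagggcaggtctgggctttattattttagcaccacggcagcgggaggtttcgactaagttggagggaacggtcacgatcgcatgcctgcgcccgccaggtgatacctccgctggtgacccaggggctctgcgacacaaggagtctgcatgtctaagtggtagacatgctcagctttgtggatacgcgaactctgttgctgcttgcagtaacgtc
Col8a1: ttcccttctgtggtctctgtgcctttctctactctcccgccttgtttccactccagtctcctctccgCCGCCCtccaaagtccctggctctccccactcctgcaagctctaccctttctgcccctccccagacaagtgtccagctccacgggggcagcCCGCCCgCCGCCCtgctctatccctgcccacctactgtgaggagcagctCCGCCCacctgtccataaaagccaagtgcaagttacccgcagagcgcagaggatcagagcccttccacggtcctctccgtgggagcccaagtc
Serpinh1: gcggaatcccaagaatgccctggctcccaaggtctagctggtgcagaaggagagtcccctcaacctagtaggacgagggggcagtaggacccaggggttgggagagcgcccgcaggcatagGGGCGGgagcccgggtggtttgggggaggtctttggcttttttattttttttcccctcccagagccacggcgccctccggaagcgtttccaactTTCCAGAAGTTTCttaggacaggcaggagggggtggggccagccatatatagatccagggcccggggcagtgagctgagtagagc
Col4a1 and Col4a2, shared stretch at chr16:84885471-84885646, plus strand: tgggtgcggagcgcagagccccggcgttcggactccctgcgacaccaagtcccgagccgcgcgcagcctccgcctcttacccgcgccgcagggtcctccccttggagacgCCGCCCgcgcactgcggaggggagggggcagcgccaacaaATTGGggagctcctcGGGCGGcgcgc

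Col4a1 and Col4a2 are transcribed away from each other on chromosome 16, and their annotated starts lie 77 bases apart, so 176 bases stand in both windows. The shared stretch holds 1 CCAAT box and 2 GC boxes, which are therefore the same letters for both genes. The window of Col1a2 holds a TATA box at positions -170 to -165 and a CCAAT box at -221 to -217, counted from the annotated start as 0. In Serpinh1, a match to the form TTCNNGAA at -35 to -28 and a match to the form GAANNTTC at -30 to -23 overlap each other. A GC box was found in 26 of the 41 windows (63.4%, against 34.9% of 27457 promoters), a CCAAT box in 9 of the 41 (against 37.7% of promoters), a TATA box in 4 (9.76%, against 14.3%) and a heat shock core in 10 (24.4%, against 15.4%). By class, GC boxes were found in 6 of 8 windows of fibrillar genes, 4 of 5 of basement membrane genes, 8 of 19 of other collagens and 8 of 9 of processing genes. The median GC content was 61.0% in these windows and 52.3% in all promoters. The matches describe letters and not binding.

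Signals on the Affymetrix arrays are linear MAS5 values as deposited, and in what follows 3 signals in a row stand in the order D1, D5, D5+. A probe set was counted as above the floor on an array where its signal reached the 40th percentile of that array, here 19.2, 16.7 and 16.3, and a gene as expressed, after the methods, unless it was under the floor on both D1 and D5 or on both D5 and D5+. Each gene is given by its brightest probe set. Where the lower signal lies under the floor, the fold is taken against the floor and written "at least". The median expressed gene had a log2 D5/D1 of -0.18 and a log2 D5+/D5 of -0.13, and all values are to be read against these shifts. Without replicates, the only measured error is how far probe sets for a gene differ. The SD of their log2 D5/D1 was 0.50 at signals of 20 to 50, 0.30 at 50 to 200 and 0.22 at 200 to 1000, and that of log2 D5+/D5 was 0.45, 0.27 and 0.16. It leaves out what the probe sets share, such as the culture and the RNA.

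Of the 53 genes 38 were expressed (71.7%, against 72.6% of all named genes): 8 fibrillar, 3 basement membrane and 15 other collagens, and all 12 processing genes. Of the 53, 19 were past 2-fold higher on D5 than on D1 (35.8%, against 6.93% of all named genes) and 1 was past 2-fold lower (1.89%, against 7.2%). Of these 19, 5 (Col8a2, Col12a1, Col13a1, Col14a1 and Col24a1) were under the floor on D1 and entered through their later signal. In bulk RNA fewer cells of a type and less RNA per cell cannot be told apart. Among the 31 genes above the floor on all 3 arrays, 14 were past 2-fold higher on D5 (45.2%, against 6.66% of such genes). With ICRF-193, 5 of the 53 were past 2-fold higher on D5+ than on D5 (9.43%, against 1.53%) and 3 past 2-fold lower (5.66%, against 4.35%), and of the 31 genes above the floor throughout, 4 were past 2-fold higher (12.9%, against 1.34%). Set directly against D1, 19 of the 53 were past 2-fold higher on D5+ (35.8%, against 5.26%). Close to the 2-fold line of D5/D1 lay Col5a2 (0.96), Col11a1 (0.97), Plod1 (0.97) and Col18a1 (0.98) just inside it, and Col15a1 (1.02), Col4a2 (1.04) and Col4a5 (1.05) just past it, on the log2 scale.

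**Figure D1:**
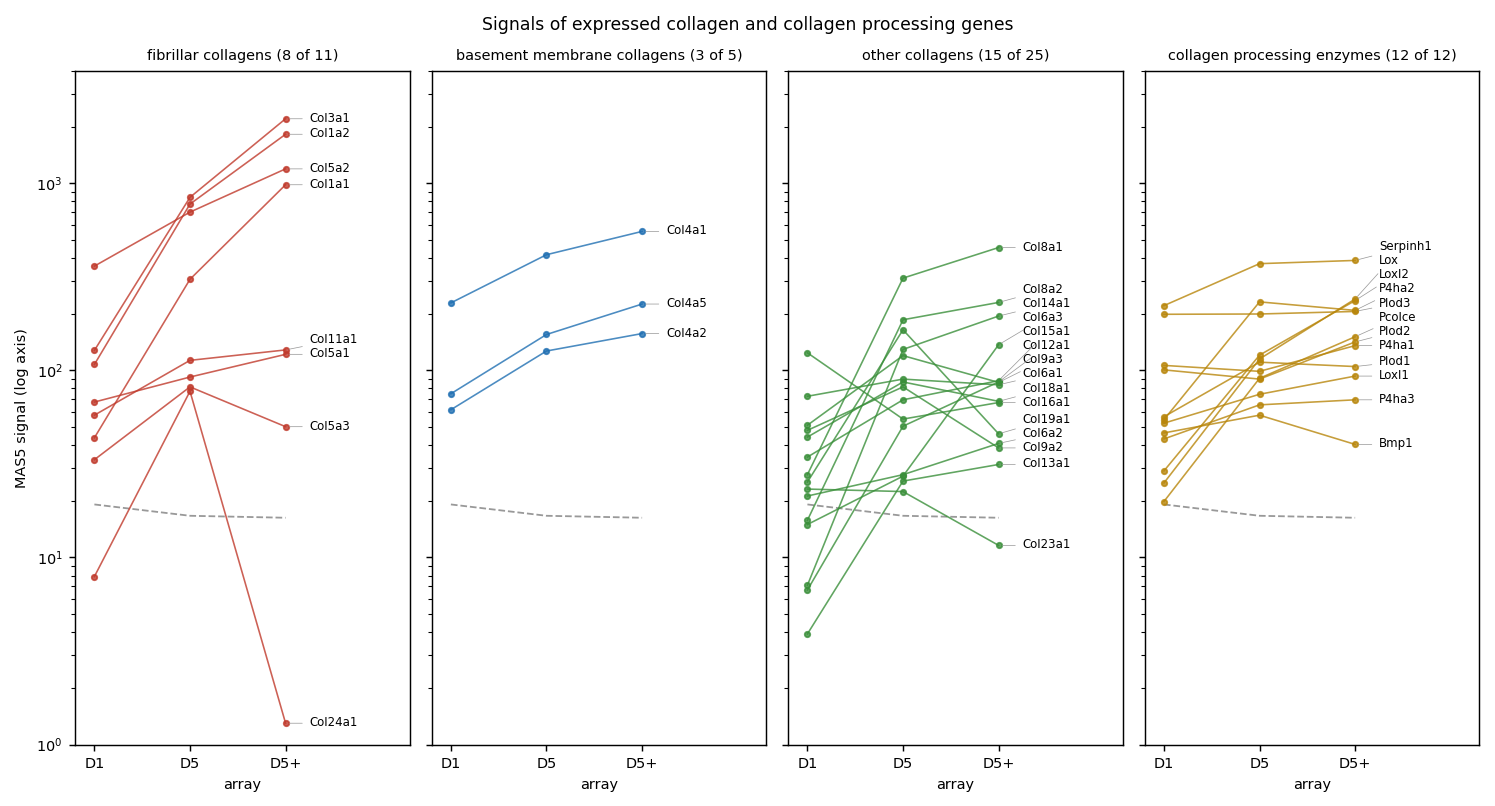
MAS5 signals (log axis) on the D1, D5 and D5+ arrays for the 38 expressed genes, each line a gene in 1 panel per class, with the floor of each array dashed. Col1a1, Col1a2 and Col3a1 go from 43.6, 107.5 and 127.8 on D1 to 982.1, 1827.7 and 2212.3 on D5+, while Col24a1 is above the floor on D5 only.

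All 4 classes held genes past 2-fold higher on D5, and the order of the class medians depended on the floor and on how probe sets were combined. The share of genes past 2-fold higher on D5 was 5 of 11 for fibrillar, 2 of 5 for basement membrane and 8 of 25 for other collagens, and 4 of 12 for processing genes. It was 6.93% for all named genes. Among those expressed, log2 D5/D1 had a median of 2.01 for fibrillar collagens (range 0.44 to 3.29), 1.04 for basement membrane collagens (0.86 to 1.05), 1.02 for other collagens (-1.18 to 4.19) and 0.68 for processing genes (-0.16 to 2.2). The median log2 D5+/D5 was 0.59 for fibrillar collagens (-5.89 to 1.68), 0.41 for basement membrane collagens (0.31 to 0.54), 0.29 for other collagens (-1.85 to 2.33) and 0.21 for processing genes (-0.52 to 1.07). The ranges of the classes overlap in both ratios. With a floor at the 20th percentile or none, the fibrillar median of log2 D5/D1 was 0.97, under the basement membrane median of 1.05, and with the mean over probe sets the fibrillar median of log2 D5+/D5 was 0.42, under the basement membrane median of 0.52. Over the genes above the floor on all 3 arrays the median log2 D5/D1 was 1.29 for 7 fibrillar, 1.04 for 3 basement membrane and 0.98 for 9 other collagens. The median log2 D5+/D5 of the same genes was 0.77, 0.41 and -0.10. These medians describe genes and are not tests of a difference between classes.

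Among the fibrillar collagens, type I and type III chains were far higher on D5 than on D1 and higher again with ICRF-193. Col1a1, the α1 chain of type I collagen, had signals of 43.6, 306.7 and 982.1, which is 7.03-fold higher on D5 than on D1 and a further 3.2-fold on D5+. Its partner chain Col1a2 had 107.5, 774.2 and 1827.7, or 7.2-fold and then 2.36-fold. Col3a1, the single chain of type III collagen, which shares fibrils with type I, had 127.8, 841.1 and 2212.3, or 6.58-fold and then 2.63-fold. These 3 genes and the lysyl oxidase Lox were the 4 genes here in group A3 (past 2-fold higher on D5 and past 2-fold higher again with the inhibitor), which held 0.194% of all expressed genes. The second probe sets of Col1a1 and Col1a2 gave log2 D5/D1 of 2.07 and 3.03 and log2 D5+/D5 of 1.64 and 1.05, on the same side of the 2-fold lines. Against D1 directly, the D5+ signal was 22.5-fold higher for Col1a1, 17.0-fold for Col1a2 and 17.3-fold for Col3a1.

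Type V and XI chains, which start and limit fibrils, differed less between the arrays. Col5a2 had signals of 360.7, 701.1 and 1194.0, 1.94-fold higher on D5 than on D1 and 1.7-fold higher on D5+ than on D5. It lies next to Col3a1 on chromosome 9. Col5a1 had 67.7, 92.1 and 121.8, and its probe sets disagreed in size, with log2 D5/D1 of 0.44 and 1.48. Col11a1 had 57.6, 113.1 and 128.6. Col5a3 took another course, with 33.3, 81.6 and 50, or 2.45-fold higher on D5 than on D1 and 1.63-fold lower on D5+ than on D5. Its log2 D5+/D5 of -0.71 stands beside a probe set SD of 0.27 at signals of 50 to 200.

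Col24a1, a fibrillar chain of restricted expression, was above the floor on D5 alone, with 7.9, 77.3 and 1.3. The D5 signal was at least 4.03-fold higher than D1 and at least 4.74-fold higher than D5+, and it rests on 1 probe set. Among the other collagens only Col19a1 was also past 2-fold higher on D5 than on both D1 and D5+, and it was above the floor on all 3 arrays. Col19a1, which attaches to fibrils and is known from neurons, had 25.3, 164.8 and 45.8, or 6.51-fold higher on D5 than on D1 and 3.6-fold lower on D5+ than on D5. These 2 genes were the ones here in group A1, past 2-fold higher on D5 than on D1 and past 2-fold lower on D5+ than on D5, which held 2.35% of expressed genes. The cartilage chains Col2a1 and Col11a2 were under the floor on all 3 arrays by their brightest probe sets (Col2a1 at 16.0, 10.1 and 6.2), and Col27a1 was above it on D5+ only, at 31.1.

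**Figure D2:**
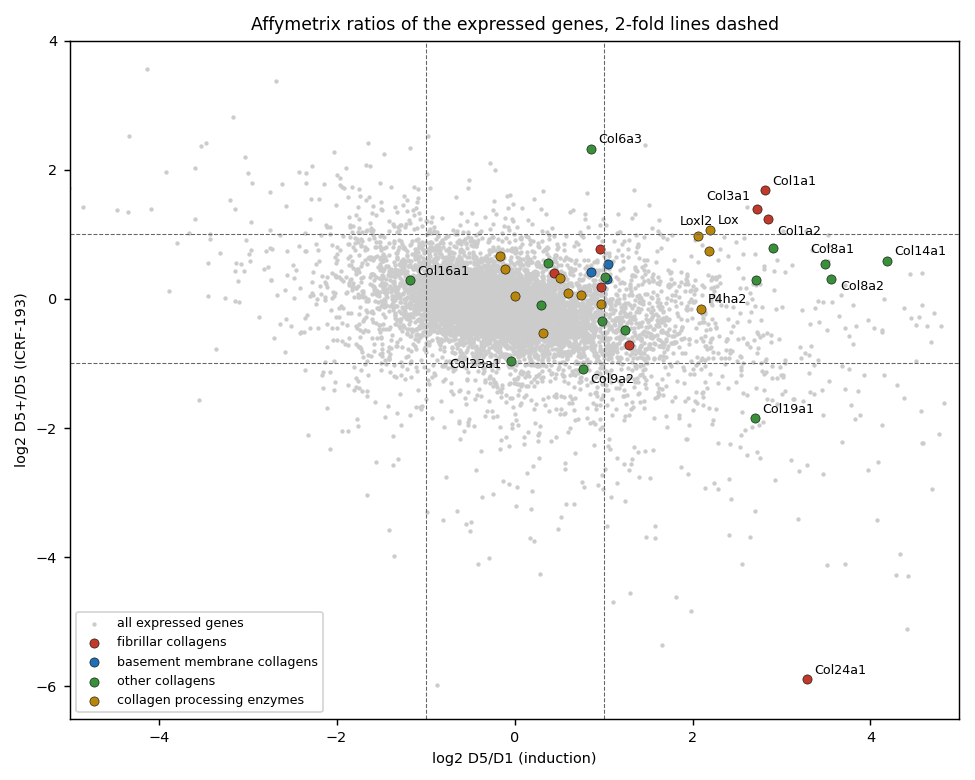
Log2 D5/D1 (x axis) against log2 D5+/D5 (y axis) of all expressed genes in grey and of the 38 expressed collagen and processing genes in colour, with 2-fold lines dashed. Both axes use the D5 array. Col1a1, Col1a2, Col3a1 and Lox lie past 2-fold in the upper right, Col19a1 and Col24a1 in the lower right, and Col16a1 alone past 2-fold to the left.

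The basement membrane chains that were expressed had ratios of similar size. Col4a1 had signals of 229.4, 415.1 and 553.0, and Col4a2, its partner in the common type IV trimer, had 61.6, 126.9 and 157.3 in the same order. From D1 to D5 this is 1.81-fold for Col4a1 and 2.06-fold for Col4a2, and from D5 to D5+ it is 1.33-fold and 1.24-fold, so the pair that shares the printed promoter stretch had log2 D5/D1 of 0.86 and 1.04, closer to each other than the probe set SD at these signals. Col4a5 had 75.0, 155.5 and 226.2, 2.07-fold and then 1.45-fold higher. Its head-to-head neighbour on the X chromosome, Col4a6, whose annotated start lies 1415 bases away, was under the floor on all arrays, with signals from 2.9 to 7.6. Col4a4, of the trimer known from kidney and some other basement membranes, was also under the floor throughout (2.4, 6.6 and 0.7). The order of the 3 arrays, D1 lowest and D5+ highest, was the same in all 3 expressed chains, and none of them was past 2-fold between D5 and D5+.

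Among the other collagens log2 D5/D1 ran from -1.18 (Col16a1) to 4.19 (Col14a1, from a D1 signal under the floor). The short-chain collagens, which form sheets under endothelium and around vessels, were far higher on D5 than on D1: Col8a1 had 27.7, 311.2 and 453.4, 11.2-fold higher on D5 than on D1, and Col8a2 had 15.8, 186.4 and 230.7, at least 9.71-fold higher. Bounds such as that of Col8a2 cannot be ranked against measured folds. Neither was past 2-fold between D5 and D5+ (1.46-fold and 1.24-fold). Of the collagens that bind fibrils, Col14a1 had 7.1, 129.4 and 195.1, at least 6.74-fold higher on D5 than on D1. A second probe set of Col14a1 that was above the floor on D1 gave a log2 D5/D1 of 1.85. Col12a1 had 6.7, 50.3 and 86.7, at least 2.62-fold higher on D5.

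Col16a1, another collagen that binds fibrils, was the single gene past 2-fold lower on D5, with 124.1, 54.9 and 67.3, or 2.26-fold lower on D5 than on D1, a call lost narrowly under 1 of 4 scalings (log2 -0.99). The chains of type IX collagen, a cartilage collagen, did not follow one course. Col9a2 had 47.8, 81.6 and 38.5, and was 2.12-fold lower on D5+ than on D5, a call lost under 3 of 4 scalings (log2 -0.98 with the median of probe sets above the floor and -0.92 with hybridization controls, for example). Col9a3 had 50.9, 119.9 and 86.2, and Col9a1, a neighbour of Col19a1 on chromosome 9, reached the floor on D5+ only, at 30.1.

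Type VI collagen, which forms beaded filaments around cells, differed between its chains. Col6a1 had 72.7, 89.8 and 83.7, and Col6a2, its neighbour on chromosome 20, had 21.3, 27.7 and 40.7. Col6a3 had 15.0, 27.2 and 137.1, 5.04-fold higher on D5+ than on D5, the highest measured D5+/D5 among the expressed genes here. Col6a3 was thus past 2-fold with the inhibitor while the chains it assembles with were 1.07-fold lower and 1.47-fold higher. A second probe set of Col6a3 was under the floor on all arrays.

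The multiplexins, which lie at basement membranes and are cut to give fragments such as endostatin, were near 2-fold between D1 and D5. Col15a1 had 34.4, 69.6 and 88.1 (2.02-fold and then 1.27-fold higher), and Col18a1 had 44.0, 86.7 and 68.3 (1.97-fold higher and then 1.27-fold lower). Probe sets of Col18a1 disagreed in the sign of log2 D5+/D5, at -0.34 and 0.23. Of the transmembrane collagens, Col13a1 had 3.9, 25.6 and 31.4, at least 1.33-fold higher on D5, so its place past 2-fold rests on a D1 signal under the floor. Col23a1 had 23.2, 22.5 and 11.6 in the same order.

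The 15 genes that were not expressed were all collagens: Col2a1, Col11a2, Col27a1, Col4a4, Col4a6, Col6a5, Col6a6, Col7a1, Col9a1, Col10a1, Col17a1, Col20a1, Col22a1, Col25a1 and Col26a1. Of these, 13 were under the floor on all 3 arrays, with signals from 0.3 to 16.6, and their ratios have no meaning. A second probe set of Col2a1 counted as expressed, with signals of 20, 1.5 and 18.1.

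**Figure D3:**
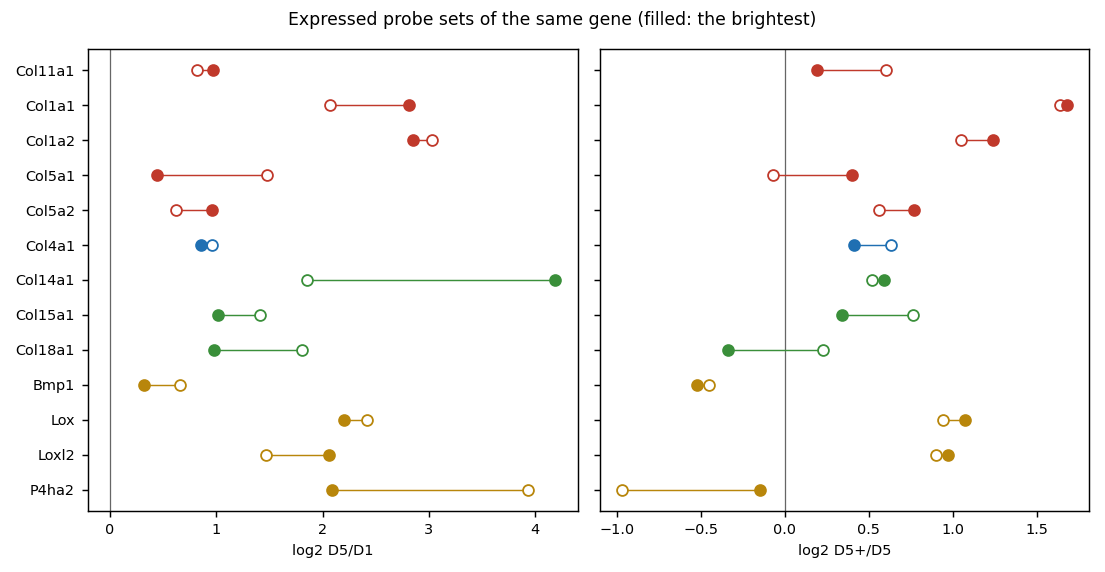
Log2 D5/D1 (left) and log2 D5+/D5 (right) for the 13 genes with 2 expressed probe sets, filled circles for the brighter one. All 13 have 1 sign in D5/D1, and 11 have 1 sign in D5+/D5, with Col5a1 and Col18a1 on both sides of 0. The widest gap, 2.34 in D5/D1, is that of Col14a1.

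Hydroxylation comes first in collagen processing, and 1 of its 6 enzymes was past 2-fold in a ratio. Of all named genes 6.93% were past 2-fold higher on D5 than on D1, and 6 genes are too few to set against this. P4ha2, a catalytic subunit of prolyl 4-hydroxylase, had 54.5, 232.3 and 209.2, 4.26-fold higher on D5 than on D1 and 1.11-fold lower on D5+ than on D5. The other subunits were closer to even, P4ha1 with 106.3, 98.8 and 135.6 and P4ha3 with 43.0, 65.4 and 69.6 on D1, D5 and D5+. Of the lysyl hydroxylases, Plod1 had 56.5, 110.6 and 104.8, 1.96-fold higher on D5. Plod2, which modifies the lysines of the telopeptides, had 100.6, 89.8 and 141.9, and Plod3 had 199.4, 200.1 and 206.5.

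Serpinh1, whose promoter is printed above, had 221.8, 371.8 and 386.9, 1.68-fold higher on D5 than on D1 and 1.04-fold higher on D5+ than on D5. This brightest probe set is of a type that can also read related transcripts, and the other, with signals from 2.0 to 10.9, was under the floor. Pcolce, which enhances removal of the C-propeptide, had 19.9, 90.7 and 151.2, 4.56-fold and then 1.67-fold higher. Bmp1, the protease that Pcolce enhances, had 46.3, 57.6 and 40.2, and was not past 2-fold in either ratio.

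Of the 3 cross-linking enzymes 2 were past 2-fold higher on D5 than on D1, and 1 of these was past 2-fold higher again on D5+. Of all named genes 6.93% and 1.53% were past 2-fold higher in these ratios, and 3 genes are too few to set against them. Lox, lysyl oxidase, had 25.0, 115.0 and 240.7, 4.6-fold higher on D5 than on D1 and 2.09-fold higher again on D5+. Loxl2, known to cross-link type IV collagen, had 29.0, 120.6 and 236.0, or 4.16-fold and then 1.96-fold. Loxl1, better known from elastic fibres, had 52.2, 74.5 and 93.2, or 1.43-fold and then 1.25-fold. The second probe sets of Lox and Loxl2 gave log2 D5+/D5 of 0.94 and 0.90, close to the 2-fold line on its other side for Lox.

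By groups of the methods, 13 of the 38 expressed genes were in A2, past 2-fold higher on D5 and within 2-fold between D5 and D5+ (6.99% of all expressed genes were), and 16 were in B2, within 2-fold in both ratios (76.8% of all expressed genes were). The A2 genes were Col5a3, Col4a2, Col4a5, Col8a1, Col8a2, Col9a3, Col12a1, Col13a1, Col14a1, Col15a1, P4ha2, Loxl2 and Pcolce. Col23a1, Col6a1, Col6a2, Col18a1, Col11a1, Col5a1, Col5a2, Col4a1 and 8 processing genes made up B2. Under the rule of the methods, by which any expressed A1 probe set, and failing that any A2 probe set, places a gene, Col5a1 and Col18a1 would join A2, and Lox would move to A2 from A3. Col2a1 would count as expressed through its second probe set, past 2-fold lower on D5 and past 2-fold higher on D5+ than on D5. Its D5 signal there, 1.5, was under the floor.

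On the two-colour arrays, whose values are log ratios of unstated base, 23 of these genes were measured. D5/D1 was above 0 for 17 of them (73.9%, against 51.8% of named genes), and D5/D5+ was below 0, that is higher with ICRF-193, for 21 (91.3%, against 49.0%). The ratios were read as Cy5 over Cy3 from the labels. Pearson's r with the Affymetrix ratios was positive across expressed genes (0.61 over 6782 genes for D5/D1 and, with both as D5/D5+, 0.51 over 6786), genes not being independent replicates. Whether the cultures behind both platforms were the same is not stated.

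The class medians of D5/D1 were 0.40 for fibrillar, 0.08 for basement membrane and 0.43 for other collagens and 0.18 for processing genes, and those of D5/D5+ were -0.63, -0.38, -0.33 and -0.30. Among the fibrillar collagens Col1a2 lay furthest out. It had a D5/D1 of 1.86, at percentile 99.4 of named genes on that array, and a D5/D5+ of -1.31, at percentile 0.4. Col3a1 had 0.42 (percentile 88.1) and -0.74 (2.0), and Col5a2 had 0.96 (96.5) and -0.63 (2.7) as the mean of 2 probes, which disagreed in sign for D5/D5+ (-1.54 and 0.27). Col5a3 was higher on D5 than on D5+ here as well, with a D5/D5+ of 0.31, at percentile 91.7. Col11a2, under the floor on the Affymetrix arrays, had 0.40 and -0.76. Col5a1 had -0.08 and -0.30, and Col2a1 had -0.17 and -0.19.

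Of the cross-linkers and hydroxylases, Lox had a D5/D1 of 1.19 (percentile 97.7) and a D5/D5+ of -0.82 (1.5). P4ha2 had 0.99 (96.6) and -1.07 (0.7), so that it was higher with the inhibitor here, while its Affymetrix signal was 1.11-fold lower on D5+ than on D5. Pcolce had a D5/D1 of -0.01 (percentile 46.1), where the Affymetrix arrays gave 4.56-fold higher. Col15a1 had 1.07 (97.1) and -0.80 (1.6), its probes giving D5/D1 of 1.76 and 0.38. Of the basement membrane chains, Col4a5 had 0.05 (57.1) and -0.76 (1.8) and Col4a4 had 0.10 (64.2) and -0.01 (46.5). The other collagens Col13a1, Col14a1 and Col18a1 had D5/D1 of 0.26, 0.29 and 0.43 and D5/D5+ of -0.21, -0.33 and -0.41. Plod1, Plod2, Plod3, Serpinh1, Bmp1 and Loxl1 had D5/D1 between -0.21 (Bmp1) and 0.53 (Loxl1) and D5/D5+ between -0.51 (Plod2) and -0.05 (Plod3). Col17a1, under the floor on the Affymetrix arrays, was the only other gene with D5/D5+ above 0, at 1.23. Of the 19 expressed genes measured on both platforms, 15 had the same sign in D5/D1 and 15 in D5/D5+. Among the 10 of them past 2-fold in the Affymetrix D5/D1, 9 had the same sign on the two-colour array, Pcolce being the exception.

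**Figure D4:**
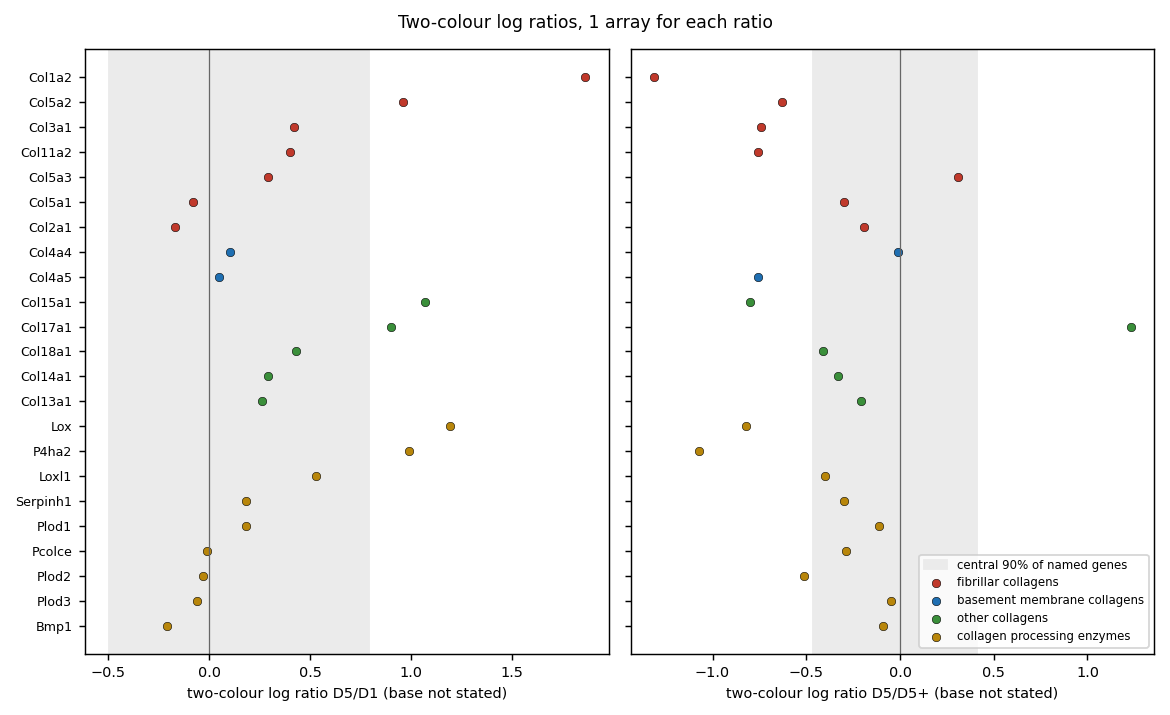
Two-colour log ratios D5/D1 (left) and D5/D5+ (right), base not stated, of the 23 genes measured, 1 array for each ratio, with the central 90% of named genes shaded (-0.50 to 0.79 and -0.47 to 0.41). Col1a2 at 1.86 and -1.31 lies outside the band on both, and Col17a1 at 1.23 lies above it on the right.

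The partners of these genes in the pathway did not share one course. Of all expressed genes, 9.54% were past 2-fold higher and 9.91% past 2-fold lower on D5 than on D1, and 2.11% and 5.99% on D5+ than on D5, so 1 to 3 calls in lists this short are too few to set against them. Of 11 expressed other processing genes, 2 were past 2-fold higher on D5 and 0 lower, with a median log2 D5/D1 of -0.06: Loxl3 had 3.7, 39.3 and 38.5 and the collagen galactosyltransferase Colgalt2 had 15.6, 52.7 and 25.7, both from D1 signals under the floor. Ppib, a prolyl isomerase, had 1771.1, 1223.9 and 1129.5, and P4hb, the common subunit of prolyl 4-hydroxylase, had 891.5, 714.5 and 614.2. Of 6 collagen receptors, 1 was past 2-fold higher on D5 (the integrin Itga1, with 11.4, 34.4 and 51.0, at least 1.79-fold against the floor) and 2 lower (Ddr1 and Adgrg1), and the median was -0.21. Of 6 expressed collagenases and inhibitors, 1 was past 2-fold higher, the gelatinase Mmp2 with 51.6, 226.4 and 257.7. Mmp9, another gelatinase, which the rule counts as not expressed because it was under the floor on D5 and D5+, had 100.3, 4.6 and 0.6, at least 6.01-fold lower on D5 than on D1. Of 10 regulators, 3 were past 2-fold higher on D5 and 0 lower, among them the growth factor Tgfb3 with 36.9, 180.1 and 273.7. With ICRF-193, 0 of the receptors, 0 of the collagenases and inhibitors, 1 of the regulators (Ltbp1) and 0 of the other processing genes were past 2-fold higher, while 1 regulator (Smad3, 2.29-fold) and 1 other processing gene (Colgalt2, 2.05-fold) were past 2-fold lower.

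Markers of several cell types were above the floor. All 7 granule cell markers named on the array were above the floor on all arrays, with summed signals of 8806, 5378 and 5167. These sums came mostly from Neurod1 (5653.8, 3072.2 and 2687.0) and Pax6 (1804.4, 640.2 and 829.9). In log2 D5/D1, 5 of the 7 were below 0 and 2 above it, Gabra6 with 84.5, 962.7 and 686.4 and Etv1 with 169.0, 314.0 and 469.2. The summed signal of 10 mural markers was 438.8, 1523 and 2396, mostly from Tagln (149.0, 968.6 and 1574.9) and Acta2 (175.5, 405.6 and 650.2), which smooth muscle, pericytes and myofibroblasts express. Of these 10, 6, 4 and 3 lay under the floor in the same order. Kcnj8, Notch3 and Cspg4 were under it on all 3 arrays, while Pdgfrb had 17.7, 24.3 and 39.0 and Rgs5 had 25.4, 27.8 and 20.9. The 6 expressed mural genes were all above 0 in log2 D5/D1, with a median of 0.50. In log2 D5+/D5 4 of them were above 0 and 2 below it, with a median of 0.60. The 10 fibroblast and meningeal markers summed to 373.6, 331.4 and 390.2, with 6, 2 and 4 under the floor. Pdgfra was the largest single signal in each sum, with 240.7, 105.2 and 122.9. The 8 expressed genes of this list had a median log2 D5/D1 of 0.67, with 7 above 0 and 1 below it. The same 8 genes had a median log2 D5+/D5 of -0.19, with 4 above 0 and 4 below it. Of them 1 was past 2-fold higher (Lum, with 22.1, 38.9 and 121.2) and 2 past 2-fold lower (Islr and Aldh1a2). Of all expressed genes 2.11% were past 2-fold higher and 5.99% past 2-fold lower in this ratio, and 8 genes are too few to set against this. Both lower calls rest on D5+ signals under the floor. Islr had 15.1, 17.0 and 1.3, at least 1.04-fold lower on D5+ than on D5. Aldh1a2 had 7.2, 19.1 and 9.3, at least 1.17-fold lower. The 10 endothelial markers summed to 233.5, 146.7 and 231.7, with 6, 6 and 7 under the floor. Pecam1, Vwf, Tie1 and Emcn were under it on all 3 arrays. Of the 4 expressed endothelial genes, 2 were higher on D5+ than on D5, Esam with 57.1, 32.3 and 59.8 and Eng with 54.4, 44.7 and 84.9. The other 2, Kdr and Tek, were lower. Flt1 and Cldn5, which the rule counts as not expressed, were each above the floor on 1 array. Flt1 had 12.8, 10.3 and 36.2, at least 2.17-fold higher on D5+ than on D5. Cldn5 had 38.1, 7.3 and 8.2, at least 2.28-fold lower on D5 than on D1.

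The 6 astrocyte markers summed to 3372, 4556 and 2080. Of these 6, 4 were past 2-fold lower on D5+ than on D5, against 5.99% of all expressed genes. They were Gfap, with 1016.1, 1511.9 and 167.0, Aqp4, Slc1a3 and Aldh1l1. The other two were higher on D5+, S100b with 120.8, 339.3 and 512.9 and Gja1 with 469.2, 921.2 and 1062.8. Microglial markers (7) summed to 679.4, 764.8 and 602.3, and oligodendrocyte markers (6) to 1930, 1374 and 2172. No marker in these lists had a signal of 0 on any array. The part of these cell types in the collagen values was not tested.

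**Figure D5:**
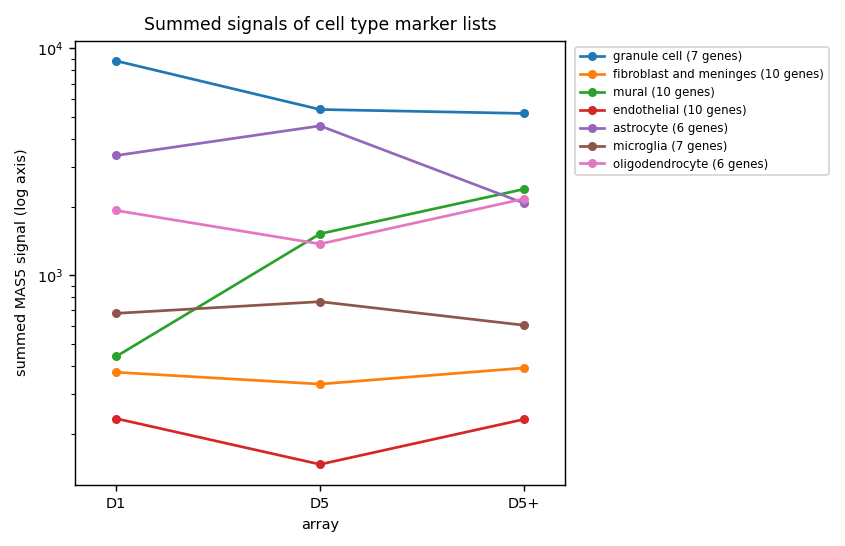
Summed MAS5 signals (log axis) of 7 marker lists on the D1, D5 and D5+ arrays. The mural list stands at 438.8, 1523 and 2396, and the astrocyte list at 4556 on D5 and 2080 on D5+.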

How the data were processed

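For D1, D5 and D5+, 1 Affymetrix rat array each was read. The authors' deposited values are linear signal intensities from GCOS and MAS5 (no versions stated). The methods speak of normalization by the 50th percentile, but median signals over 31042 probe sets were 32.9 (D1), 29.2 (D5) and 28.0 (D5+), so the values were taken as they stand. Precision is limited by having 1 array per condition. In place of detection calls, not used here, stands the 40th percentile of signals as a floor. The two-colour values deposited by the authors are log ratios. Neither their base nor how they were corrected and scaled is stated, and only signs, values and percentiles within an array were used. Their medians were 0.0057 and 0.0015.

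Symbols came from the platform annotations, updated by gene ID through a RefSeq table of GRCr8, which was otherwise used for promoters and gene order only: 20826 Affymetrix probe sets had 1 symbol, 436 several and 9780 none, and 12750 of 20500 two-colour probes had 1 symbol. A gene is its probe set of highest average log2 signal (signals under 0.1 read as 0.1), and two-colour probes of a gene were averaged. Ratios were divided at 2 and 0.5, as in the methods, and "expressed" follows the methods' rule on absent calls. Every expressed gene of the set is named, and up to 3 partners with the largest ratios in the direction of their list's median. Itga1, Loxl3, Colgalt2, Ltbp1, Smad3 and Mmp9, the single markers, and the promoters of Col1a2, Col8a1 and Serpinh1, were chosen after their values were seen. The genes and lists were chosen with earlier results of these data known. Alternatives were floors at the 20th and 60th percentiles and none, other treatments of low signals, 1.5-fold and 3-fold thresholds, 4 scalings, the mean over probe sets, and other class members. The calls and scalings were tested on simulated data with known ratios, in which the changed genes had D1 signals well above the floor. The interval was computed on a plain series of numbers only. Python 3.11.15, numpy 2.4.6, pandas 2.3.3, scipy 1.17.1 and matplotlib 3.10.9 were used.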

Additional observations from a re-analysis of the deposited data

How the results depend on the processing

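No paired analysis was possible because each condition has 1 array, and no replicate could be left out. Of the main counts and medians under the alternatives, 142 values stayed and 19 did not stay within 1.5 times the count, or within the order-statistic interval of the median, and 0 single ratios past 2-fold changed sign under the 4 scalings. The 19 genes past 2-fold higher on D5 than on D1 were so under all 4 scalings as well, 25 under at least 1 of them, and 12 under every floor, scaling, treatment of low signals and the mean over probe sets: Col1a1, Col1a2, Col3a1, Col8a1, Col8a2, Col14a1, Col19a1, Col24a1, Lox, Loxl2, P4ha2 and Pcolce. Scaling moved the median of all expressed genes from -0.18 to between -0.02 and 0.00 for log2 D5/D1, and the share of genes past 2-fold that were higher on D5 from 49.1% to between 61.8% and 63.5%. For D5+/D5 that share went from 26% to between 31.9% and 41.9%, and for D5+/D1 from 35.9% to between 54.0% and 60.8%.

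Genes past 2-fold lower on D5 numbered 1 as deposited (Col16a1), 0 at 3-fold, 0 with scaling by the median of probe sets above the floor, 2 with a floor at the 20th percentile and 3 with no floor. Genes past 2-fold higher with ICRF-193 numbered 5, against 11 at 1.5-fold, 2 at 3-fold, 9 with the lower floor and 10 with none. These 5 were so under all scalings. Under every floor, scaling, treatment of low signals and the mean over probe sets, 3 were (Col1a1, Col1a2 and Col3a1), while Col6a3 and Lox were not. Genes past 2-fold lower with it numbered 3, against 5 at 1.5-fold, 6 with the lower floor and 7 with none, and those higher on D5+ than on D1 numbered 19, against 29 at 1.5-fold. For the 3 basement membrane chains, whose interval is their narrow range, the median log2 D5/D1 of 1.04 became 0.83 with the floor added to every signal, 1.21 with the median of all probe sets, 1.23 with that of probe sets above the floor, 1.21 with quantile normalization and 1.20 with hybridization controls. Their median log2 D5+/D5 of 0.41 became 0.58 with quantile normalization and 0.58 with hybridization controls. Among all named genes, the counts past 2-fold also varied over the floors, treatments of low signals and scalings. For D5/D1 they ran from 563 to 1678 higher (985 in the report) and 586 to 2325 lower (1023). For D5+/D5 they ran from 80 to 1203 higher (218) and 305 to 1492 lower (619), and for D5+/D1 from 410 to 1521 higher (748). The fibrillar median of log2 D5/D1 went from 2.01 to 0.97 with the lower floor or none, which ended its lead over the other collagen classes. Under scalings Col9a2 (3 of 4) and Col16a1 lost their calls, and small ratios of Col23a1, P4ha1 and Plod2 (D5/D1), Col6a1, P4ha2 and Plod1 (D5+/D5) and Bmp1 and Col9a2 (D5+/D1) crossed 0. Fewer genes pass a higher threshold or floor by construction; other causes were not tested. Signals near the floor limit what can be said of 15 collagens.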
